A study of Mus musculus with 8 samples.

Results

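The salt-inducible kinases Sik1, Sik2 and Sik3 and the CREB-regulated transcription coactivators Crtc1, Crtc2 and Crtc3 were followed in mouse muscle stem cells given a short pulse of a bone morphogenetic protein. These 6 genes were taken by gene name, 3 kinases and 3 coactivators, from 55223 gene loci in the joint table of transcript levels. Each had 1 locus, and all 6 were among the 16908 loci that were tested, those averaging 0.5 TPM or more over the libraries (TPM, a transcript level scaled to transcript length and to the library's total).

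Salt-inducible kinases are serine/threonine kinases of the AMPK-related family and are activated by the tumour suppressor kinase LKB1. They phosphorylate the Crtc coactivators, which 14-3-3 proteins then hold in the cytoplasm. When cAMP rises, protein kinase A inhibits the kinases, and the coactivators move to the nucleus, where they bind CREB on its target genes. In skeletal muscle cells Sik1 is itself known as a CREB target, and its product phosphorylates class IIa histone deacetylases, which frees the MEF2 factors of muscle gene expression.

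The cells came from female C57BL/6J wild-type mice, 6 to 8 weeks old, and were expanded on Matrigel for 2 days. All 4 groups then spent 6 h in serum-free medium that held 200 ng/ml of a soluble BMP receptor (BMPR-IA/ALK3-Fc), which limits BMP activity carried over from serum. The pulse lasted 1 h, with BMP4 or BMP6 at 100 ng/ml or with the solvent alone (vehicle, 4 mM HCl and 0.1% BSA). Isolations 48 and 54 each gave a BMP4 culture and its vehicle culture (group vehicle_a), and isolations 75 and 77 each gave a BMP6 culture and its vehicle culture (group vehicle_b). Each group thus had n = 2 biological replicates, and ligand and experiment cannot be told apart when levels are compared between the isolations. The series asks whether BMPs act directly on genes of the Notch pathway, and the 6 genes described here lie outside that question.

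The 8 libraries held between 48012825 and 58002740 reads of 50 nt, estimated from transcript coverage. All 8 of 8 markers of muscle stem cells and myoblasts were present, with Pax7 between 11.1 and 16.9 TPM and Myod1 between 422 and 839 TPM. Markers of other cells were not all absent. The 5 immune markers summed to 11.96 to 18.5 TPM, most of it Itgam (10.9 to 17.1 TPM), with Ptprc at 0 in every library. The 5 fibro-adipogenic markers summed to 10.5 to 16.0 TPM, most of it Ly6a, and the 4 Schwann cell markers to 4.25 to 9.82 TPM. The 5 endothelial markers summed to 0.447 to 1.27 TPM, with Emcn at 0 in every library, and the 3 erythroid markers to at most 1.67 TPM, all of it Hba-a1, with Alas2 and Hbb-bs at 0. The 5 pericyte markers differed between the experiments and are given beside the results for Sik1. Their sum was 23.9 and 46.6 TPM in vehicle_a, 28.0 and 58.7 TPM in BMP4, 8.15 and 12.1 TPM in vehicle_b, and 11.8 and 17.9 TPM in BMP6. Most of it was Cspg4 (7.61 to 33.6 TPM), while Rgs5 and Kcnj8 stayed at or below 0.294 TPM. Pdgfrb was at 4.07 and 10.4 TPM in vehicle_a and at 0.294 and 0.266 TPM in vehicle_b. Abcc9 was at 2.73 and 12.5 TPM in vehicle_a and at 0.242 and 0.316 TPM in vehicle_b.

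Sik1 transcripts were higher in the stimulated culture than in the vehicle culture of each of the 4 isolations. The rise was about 2-fold with BMP4 and about 3-fold with BMP6, and it passed only in fits that pair both cultures of an isolation. The other 5 genes passed no test of a BMP effect. Before stimulation Sik1 differed 7.57-fold in mean level between the experiments. Sik1 (locus merged_LIST.10561, GRCm39 chromosome 17, 32063224 to 32074778, minus strand) is annotated with 1 transcript of 14 exons, and no other locus overlaps it. In isolation 48 its level was 35.2 TPM with vehicle and 71.7 TPM with BMP4. In isolation 54 it was 56.5 TPM with vehicle and 109.5 TPM with BMP4. The lower BMP4 library thus stood above the higher vehicle library. In isolation 75 the level was 5.66 TPM with vehicle and 18.6 TPM with BMP6, and in isolation 77 it was 6.46 TPM with vehicle and 18.2 TPM with BMP6. The BMP6 libraries lay close together and well above both of their vehicles, yet below every library of the BMP4 experiment.

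**Figure D1:**
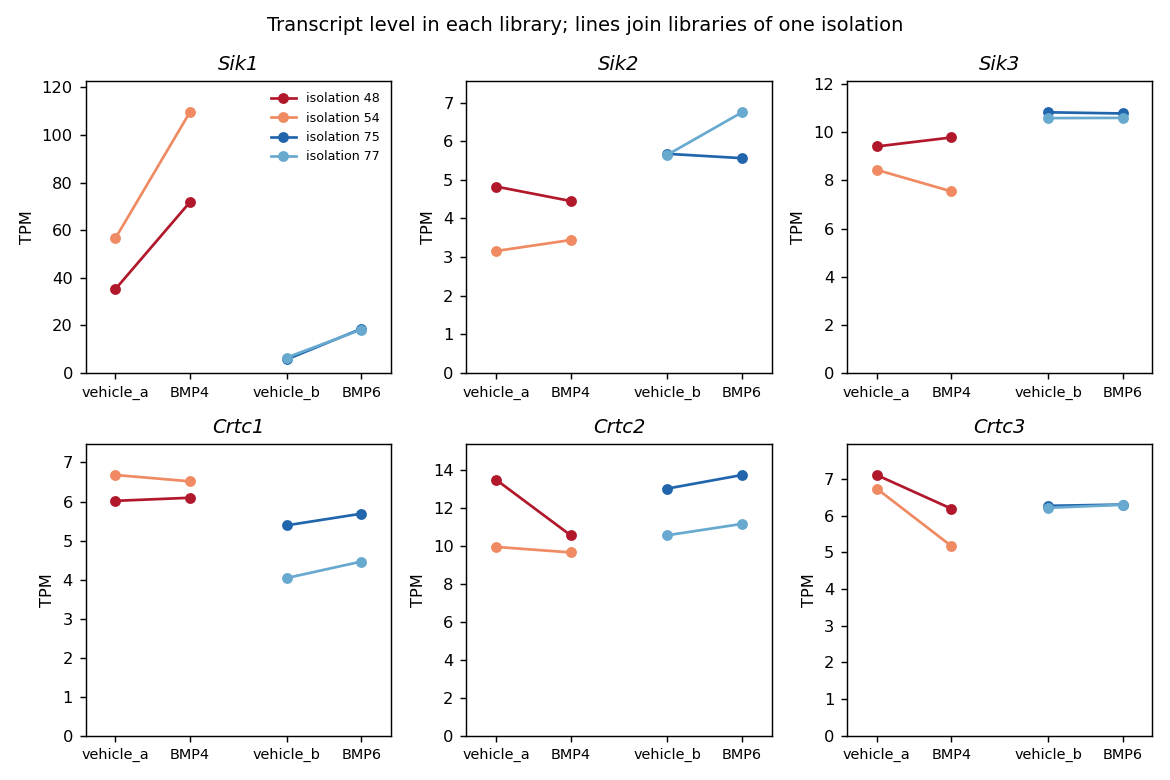
Transcript level (TPM, vertical axis from 0, a scale for each gene) of the 3 salt-inducible kinases and the 3 Crtc coactivators in the 8 libraries; each point is a library, and lines join libraries from the same isolation. Sik1 is higher with BMP in all 4 isolations and lies at 5.66 to 18.6 TPM in isolations 75 and 77 against 35.2 to 109.5 TPM in isolations 48 and 54, while the other genes show small changes of either sign.

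With BMP4, the mean Sik1 level was 90.6 ± 26.7 TPM against 45.8 ± 15.1 TPM in vehicle_a (mean ± SD, n = 2 each). The ratio within an isolation was 2.04 in isolation 48 and 1.94 in isolation 54. The log2 change of TPM + 0.5 was 0.98 (SE 0.27, 95% interval 0.32 to 1.64), with an adjusted p of 1 in limma's fit of the 4 group means (Benjamini-Hochberg over all tested loci). In that fit 0 of the 6 genes passed, beside 0.0237% of all tested loci, and 560 of 16908 loci had an unadjusted p under 0.05. Since each isolation gave both cultures, limma was also fitted with the isolation as a block. The Sik1 change of 0.98 then had an SE of 0.064 (95% interval 0.82 to 1.15) and passed, with an adjusted p of 0.0159. Of the 6 genes only Sik1 passed with the block, where 0.633% of all tested loci passed and 0.544% passed as higher. Without isolation 48 the blocked change was 0.95 (limma adjusted p = 0.0619) and without isolation 54 it was 1.02 (limma adjusted p = 0.0737), each resting on the 1 BMP4 pair left.

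With BMP6, the mean Sik1 level was 18.4 ± 0.245 TPM against 6.06 ± 0.567 TPM in vehicle_b (n = 2 each). The ratio was 3.28 in isolation 75 and 2.82 in isolation 77. The log2 change was 1.53 (SE 0.27, 95% interval 0.87 to 2.19), with an adjusted p of 0.723 in limma without the block. In that fit 0 of the 6 genes passed, beside 0.0118% of all tested loci, and 213 loci had an unadjusted p under 0.05. With the isolation as a block the SE was 0.064 (95% interval 1.36 to 1.69) and Sik1 rose with a limma adjusted p of 0.0121, from the third smallest of all p-values in that comparison. Again only Sik1 of the 6 genes passed with the block, where 0.148% of all loci passed and 0.136% passed as higher. Without isolation 75 the blocked change was 1.43 (limma adjusted p = 0.128) and without isolation 77 it was 1.63 (limma adjusted p = 0.0645).

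Set against all 16908 tested loci, few had a larger log2 change than Sik1 within an isolation. They numbered 139 in isolation 48 (0.822%), 242 in isolation 54 (1.43%), 30 in isolation 75 (0.177%) and 49 in isolation 77 (0.290%). The mean of the BMP4 and BMP6 responses of Sik1 was a log2 change of 1.26. Its SE was 0.19 without the block (limma adjusted p = 0.206, 0 of 6 genes and 0.071% of all loci passing). With the block its SE was 0.045 and it passed (limma adjusted p = 0.0031), the only gene of the 6, beside 0.674% of all loci in either direction and 0.627% as higher. It also passed without any of the 4 isolations, where it lay between 1.20 and 1.31.

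**Figure D2:**
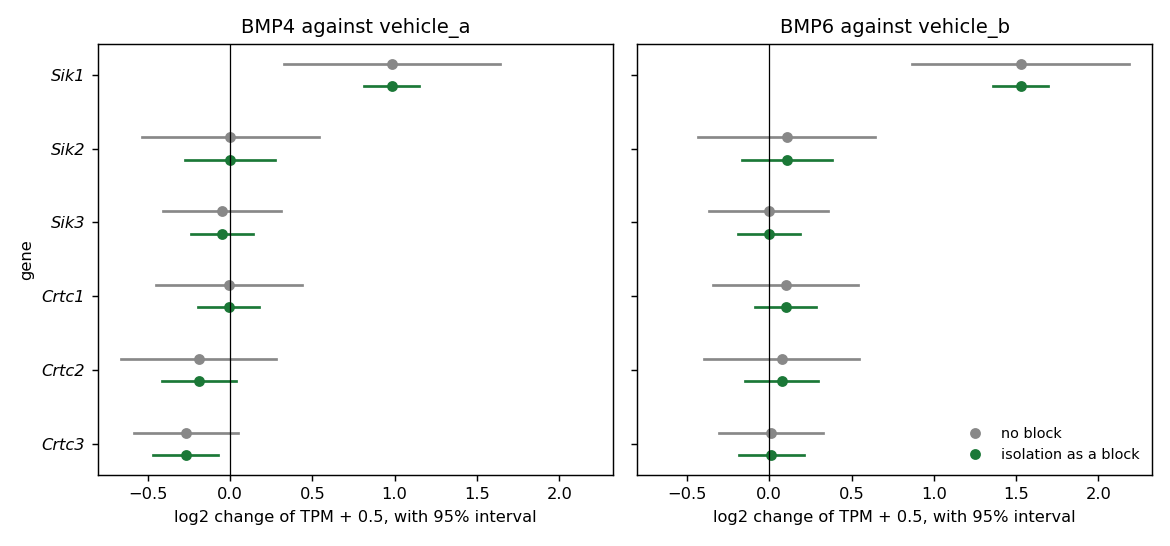
Log2 change of TPM + 0.5 (horizontal axis) of each gene for BMP4 against vehicle_a (left) and BMP6 against vehicle_b (right); points are limma estimates and bars 95% intervals, grey without and green with the isolation as a block, and the vertical line marks no change. The Sik1 intervals lie above 0 in both panels, and in the blocked fit the Crtc3 interval lies below 0 with BMP4 (-0.47 to -0.07), though its adjusted p of 0.167 did not pass.

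The signal behind the Sik1 change was spread along the gene. Read coverage was higher in the stimulated library for 14 of 14 exons in every isolation. Coverage was not scaled to library size, and each stimulated library held fewer estimated reads than its vehicle library. The exon ratios are therefore lower than scaled ratios would be. The median exon ratio was 1.86 in isolation 48, 1.85 in isolation 54, 2.96 in isolation 75 and 2.72 in isolation 77. The ratios of single exons ranged from 1.64 to 2.56 with BMP4 and from 2.06 to 7.36 with BMP6, where coverage was lower. The estimated Sik1 reads per library ran from 973 in the shallowest case to 18268 in the deepest.

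**Figure D3:**
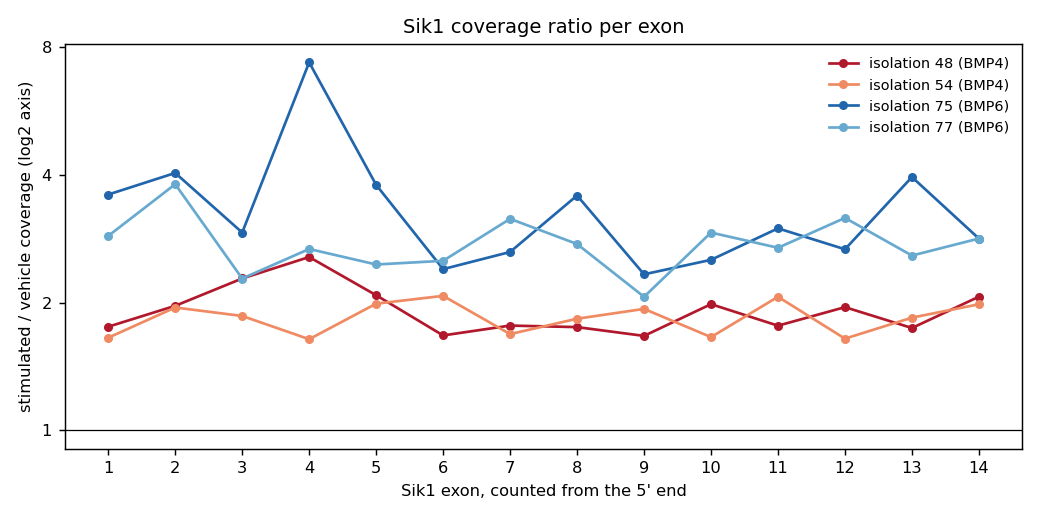
Ratio of stimulated to vehicle read coverage, not scaled to library size (vertical log2 axis), for each of the 14 annotated Sik1 exons, counted from the 5′ end (horizontal axis), with a line for each isolation. Every ratio is above 1, and the BMP6 isolations have medians of 2.96 and 2.72 against 1.86 and 1.85 for the BMP4 isolations.

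The ratio and the amount of the Sik1 response ranked the ligands in opposite order. The ratios were larger with BMP6, whereas the transcript added was larger with BMP4, 36.6 and 53.0 TPM in isolations 48 and 54 against 12.9 and 11.7 TPM in isolations 75 and 77. The BMP6 response exceeded the BMP4 response by a log2 difference of 0.55 (SE 0.39, 95% interval -0.39 to 1.48, limma adjusted p = 1.0 without the block). With the block the interval was 0.31 to 0.78 and the unadjusted p 0.00195, but the limma adjusted p of 0.255 did not pass. No locus passed this comparison in either fit (0% of all loci), although 2251 had an unadjusted p under 0.05 in limma with the block and 244 without it. Ligand and set of isolations coincide here and cannot be told apart.

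The unstimulated level of Sik1 differed between the experiments. The vehicle_a libraries held 35.2 and 56.5 TPM and the vehicle_b libraries 5.66 and 6.46 TPM, a log2 difference of -2.78 for vehicle_b against vehicle_a (SE 0.27, limma adjusted p = 0.00564). The mean after BMP6, 18.4 TPM, was 40.1% of the unstimulated vehicle_a mean. Of the 6 genes only Sik1 passed in this comparison, in which 27.2% of all tested loci passed and 16.6% passed as lower. Without vehicle_b replicate 1 the difference was -2.70 (limma adjusted p = 0.0531) and without vehicle_b replicate 2 it was -2.87 (limma adjusted p = 0.0556). The fit of all 8 libraries counts both cultures of an isolation as independent, although their deviations were correlated (0.707 and 0.455), and so overstates the degrees of freedom of a comparison between isolations. With the 4 vehicle libraries alone, 1 from each isolation, the difference of -2.78 had an SE of 0.26 and still passed (limma adjusted p = 0.0200). The pericyte marker sum was also higher in vehicle_a (23.9 and 46.6 TPM) than in vehicle_b (8.15 and 12.1 TPM). The sum was higher with BMP than with vehicle in each isolation, and so was Cspg4, which made up most of it. Cspg4 went from 17.0 to 21.9 and from 23.3 to 33.6 TPM with BMP4. With BMP6 it went from 7.61 to 11.2 and from 11.4 to 17.2 TPM. Pdgfrb went both ways with BMP4 (4.07 to 3.43 and 10.4 to 10.9 TPM). With BMP6 Pdgfrb was lower (0.294 to 0.256 and 0.266 to 0.255 TPM). Abcc9 also went both ways with BMP4 (2.73 to 2.37 and 12.5 to 13.9 TPM) and was higher with BMP6. The part of these markers in the Sik1 results was not tested. In RNA from whole cultures, fewer cells of a type and less RNA per cell cannot be told apart. This comparison uses the same vehicle libraries as the BMP comparisons.

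Sik2 and Sik3, the broadly expressed members of the kinase family, showed no change that passed. Sik2 (GRCm39 chromosome 9, 50804101 to 50920373, minus strand) was at 4.83 TPM with vehicle and 4.45 TPM with BMP4 in isolation 48, and at 3.16 and 3.44 TPM in isolation 54. In isolation 75 it was at 5.67 TPM with vehicle and 5.56 TPM with BMP6, and in isolation 77 at 5.65 and 6.75 TPM. Its direction differed between the isolations of each ligand. The blocked log2 change was 0.00 with BMP4 (95% interval -0.27 to 0.27) and 0.11 with BMP6 (95% interval -0.17 to 0.38). Sik3 (chromosome 9, 45924118 to 46135492, plus strand) was at 9.41 TPM with vehicle and 9.78 TPM with BMP4 in isolation 48, and at 8.44 and 7.54 TPM in isolation 54. It was at 10.8 TPM with vehicle and with BMP6 in isolation 75, and at 10.6 TPM with both in isolation 77. The blocked log2 change of Sik3 was -0.05 with BMP4 (95% interval -0.24 to 0.14) and -0.00 with BMP6 (95% interval -0.19 to 0.19).

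In the unstimulated cultures the means of these kinases were higher in vehicle_b than in vehicle_a, the reverse of Sik1, but neither difference passed. Sik2 averaged 3.99 ± 1.18 TPM in vehicle_a and 5.66 ± 0.0174 TPM in vehicle_b, a log2 difference of 0.48 (SE 0.22, limma adjusted p = 0.141). Sik3 averaged 8.92 ± 0.687 and 10.7 ± 0.170 TPM (log2 difference 0.25, SE 0.15, limma adjusted p = 0.229). Without vehicle_a replicate 1 the difference of Sik2 was 0.75, resting on the 1 vehicle_a library left. Sik2 overlaps the last bases of Ppp2r1b, a gene on the other strand with a mean of 16.9 TPM, over 1429 bases, and reads were assigned without a strand option. Its 3 transcripts also traded places between libraries. The shortest made up between 0% and 73.9% of the Sik2 level, the middle one between 0% and 80.6% and the longest between 19.2% and 100%. Values of Sik2 are therefore less certain than those of the other members.

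Summed over the 3 kinases, the transcript level followed Sik1. In isolation 48 the sum was 49.4 TPM with vehicle and 86.0 TPM with BMP4, and in isolation 54 it was 68.1 and 120.5 TPM. In isolation 75 the sum was 22.2 TPM with vehicle and 34.9 TPM with BMP6, and in isolation 77 it was 22.7 and 35.6 TPM. Sik1 already made up 71.2% and 82.98% of the sum in the vehicle_a libraries and 83.4% and 90.9% with BMP4. In the BMP6 experiment it was a minority of the sum with vehicle, at 25.5% and 28.5%, where Sik3 led with 48.9% and 46.6%, and a majority with BMP6, at 53.2% and 51.2%.

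**Figure D4:**
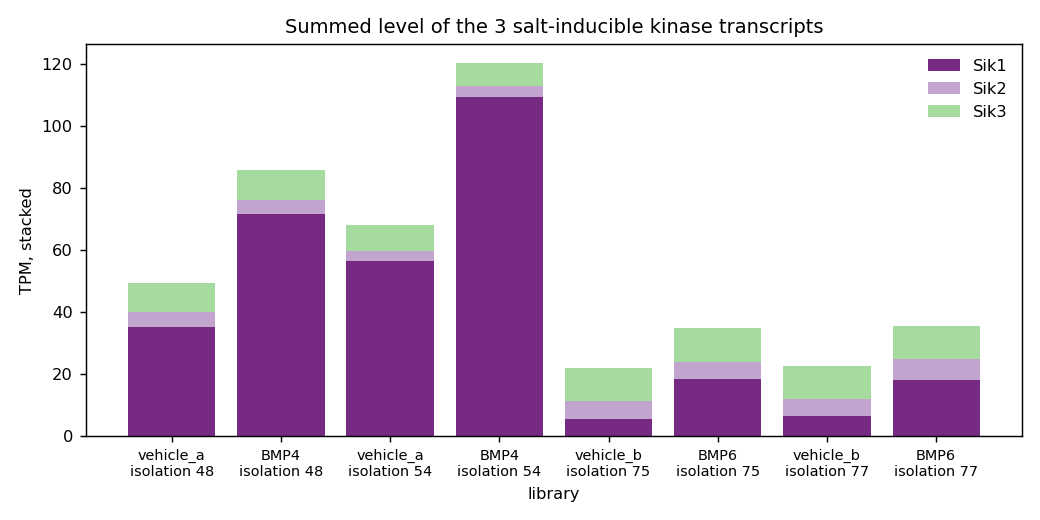
Stacked bars of the TPM of Sik1, Sik2 and Sik3 (vertical axis from 0) in each library, in pairs by isolation, vehicle on the left. The Sik1 block grows with BMP in all 4 isolations, to 83.4% and 90.9% of the sum with BMP4 and to 53.2% and 51.2% with BMP6, while the blocks of the other kinases keep a similar height.

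The coactivators gave smaller differences. Crtc2 (GRCm39 chromosome 3, 90161470 to 90171432, plus strand), the family member best known for gluconeogenic CREB targets in liver, was at 13.5 TPM with vehicle and 10.5 TPM with BMP4 in isolation 48, and at 9.93 and 9.64 TPM in isolation 54. It was at 13.0 TPM with vehicle and 13.7 TPM with BMP6 in isolation 75, and at 10.5 and 11.1 TPM in isolation 77. Values with BMP4 were thus lower in both isolations and values with BMP6 higher in both. Each change was smaller than the distance between the vehicle replicates of its experiment, though in isolation 48 it exceeded that between the BMP4 replicates. The blocked log2 change was -0.19 with BMP4 (95% interval -0.41 to 0.03, limma adjusted p = 0.299) and 0.08 with BMP6 (95% interval -0.15 to 0.30, limma adjusted p = 1).

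Crtc3 (chromosome 7, 80236375 to 80338625, minus strand) had the largest log2 change with a ligand among the members other than Sik1. Its level was 7.11 TPM with vehicle and 6.19 TPM with BMP4 in isolation 48, and 6.74 and 5.18 TPM in isolation 54. Both BMP4 libraries lay below both vehicle libraries. With BMP6 the values hardly moved, from 6.27 to 6.30 TPM in isolation 75 and from 6.22 to 6.30 TPM in isolation 77. The blocked log2 change with BMP4 was -0.27 (SE 0.076, 95% interval -0.47 to -0.07, unadjusted p = 0.0176), and it did not pass over all loci (limma adjusted p = 0.167). With BMP6 it was 0.01 (95% interval -0.18 to 0.21). The difference between these responses was 0.28 (limma adjusted p = 0.373 with the block). Within isolation 48, 22.2% of all loci had a more negative log2 change than Crtc3, and within isolation 54, 4.89%.

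Crtc1 (chromosome 8, 70835005 to 70892229, minus strand), known best from neurons, was at 6.02 TPM with vehicle and 6.10 TPM with BMP4 in isolation 48, and at 6.68 and 6.52 TPM in isolation 54. It was at 5.39 TPM with vehicle and 5.69 TPM with BMP6 in isolation 75, and at 4.04 and 4.46 TPM in isolation 77. The blocked log2 change was -0.01 with BMP4 (95% interval -0.19 to 0.18) and 0.10 with BMP6 (95% interval -0.09 to 0.28), and neither passed. Of the 3 coactivators, none passed between the unstimulated cultures: the log2 difference of vehicle_b against vehicle_a was -0.40 for Crtc1 (limma adjusted p = 0.136), 0.02 for Crtc2 (limma adjusted p = 0.955) and -0.14 for Crtc3 (limma adjusted p = 0.436). Their summed level stayed between 20.8 and 26.6 TPM in all 8 libraries. An estimated 543 to 2588 reads per library lay behind each of the 5 genes other than Sik1.

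The order of the 6 levels differed between the groups, in the place of Sik1 and among Crtc1, Crtc3 and Sik2. In vehicle_a it was Sik1, Crtc2, Sik3, Crtc3, Crtc1 and Sik2, from 45.8 down to 3.99 TPM on average, and no neighbours in that order overlapped. In BMP4 the order was Sik1, Crtc2, Sik3, Crtc1, Crtc3 and Sik2, where Crtc2 overlapped Sik3 and Crtc1 overlapped Crtc3. In vehicle_b Sik1 came after Crtc2, Sik3 and Crtc3, and its values overlapped those of Crtc3 and Sik2. There Sik2 stood above Crtc1 without overlap (5.66 against 4.71 TPM on average), the reverse of their order in vehicle_a and BMP4. In BMP6 Sik1 stood first again, above Crtc2 (12.4 ± 1.82 TPM) and Sik3 (10.7 ± 0.130 TPM) without overlap, whereas Crtc3, Sik2 and Crtc1 overlapped as neighbours.

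The genes around these kinases and coactivators were read as 9 lists with 87 genes, of which 74 were tested, and Crem, Pde4b and Pde4d stand in more than a single list. Without the block 0 of the 74 passed with BMP4 or BMP6 in limma. With the block 2 rose with BMP4, Nuak1 and Nfil3, beside 0.633% of all loci, and 0 passed with BMP6, beside 0.148%. The median log2 change of the 74 was 0.02 with BMP4 and 0.05 with BMP6, against -0.02 and -0.00 over all loci. With the block 25 of the 74 had an unadjusted p under 0.05 with BMP4 and 5 with BMP6. Over all loci that share was 20.3% (3439 loci) with BMP4 and 5.72% (967 loci) with BMP6, and the counts at this level in each list below are to be read against these shares.

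Among the kinases upstream and beside the salt-inducible kinases, 0 of 5 genes of the LKB1 complex and 1 of 10 other AMPK-related kinases passed with BMP4 in the blocked limma fit, and 1 and 5 of them had an unadjusted p under 0.05. With BMP6 none of them passed, and 0 and 2 had an unadjusted p under 0.05. The gene that passed was Nuak1, an AMPK-related kinase that LKB1 also activates. Its level was 9.35 TPM with vehicle and 18.4 TPM with BMP4 in isolation 48, and 25.8 and 47.998 TPM in isolation 54. It was 2.83 TPM with vehicle and 3.90 TPM with BMP6 in isolation 75, and 2.69 and 3.65 TPM in isolation 77. Nuak1 thus shared the higher level of the BMP4 experiment with Sik1. Its blocked log2 change was 0.91 with BMP4 (SE 0.061, limma adjusted p = 0.0165) and 0.39 with BMP6 (limma adjusted p = 0.234). Without the block its SE was 0.56 and the limma adjusted p for BMP4 was 1. Stk11, which encodes LKB1, was the most abundant gene of its complex and had blocked log2 changes of -0.20 with BMP4 (limma adjusted p = 0.181) and 0.11 with BMP6 (limma adjusted p = 0.983).

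In the cAMP arm, 0 of 8 protein kinase A subunits and inhibitors and 0 of 12 adenylyl cyclases and phosphodiesterases passed with BMP4 or BMP6 in limma with the block, and 0 and 3 had an unadjusted p under 0.05 with BMP4 and 0 in each list with BMP6. The most abundant of them were the protein kinase A inhibitor Pkig (log2 change -0.00 with BMP4 and 0.12 with BMP6) and the cyclase Adcy7 (0.08 and 0.23). Of the CREB family and its acetyltransferases 0 of 5 passed, with Atf1 at 0.11 and -0.01. Of calcineurin, the phosphatase that acts on Crtc proteins, and its regulators 0 of 6 passed, with Ppp3r1 at 0.11 and -0.00. Of the 14-3-3 proteins 0 of 7 passed, with Ywhae at 0.11 and -0.01. Of the class IIa histone deacetylases and MEF2 factors 0 of 7 passed, with Mef2a at 0.20 and 0.08. In the last 4 lists 1, 3, 4 and 2 genes had an unadjusted p under 0.05 with BMP4 in limma with the block, and 0 in each list with BMP6.

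Of 17 tested genes known as targets of CREB and Crtc proteins, 1 passed with BMP4 in limma with the block and 7 had an unadjusted p under 0.05, while with BMP6 0 passed and 3 had an unadjusted p under 0.05. The 7 went both ways, 3 higher and 4 lower with BMP4, and so did the 3 with BMP6, 2 higher and 1 lower. The gene that passed was Nfil3, a basic leucine zipper repressor. It was at 43.2 TPM with vehicle and 79.7 TPM with BMP4 in isolation 48, and at 47.7 and 94.2 TPM in isolation 54. It was at 42.6 TPM with vehicle and 60.5 TPM with BMP6 in isolation 75, and at 56.1 and 71.1 TPM in isolation 77. Unlike those of Sik1, its vehicle levels overlapped between the experiments. Its blocked log2 change was 0.93 with BMP4 (SE 0.055, limma adjusted p = 0.0136) and 0.42 with BMP6 (limma adjusted p = 0.163). Without the block the limma adjusted p for BMP4 was 0.477. The median log2 change of the 17 targets was 0.01 with BMP4 and 0.09 with BMP6.

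Of 11073 loci compared across the 4 isolations, those with log2 changes nearest to Sik1 were Nfkbia, Cxcr4, Gse1, Bdkrb2 and Id3. The comparison took tested loci with a single gene name, without Gm-number, Rik and unnamed gene models. Loci with several names were left out. Likeness was the root mean square difference of the 4 changes from those of Sik1, which were 1.02, 0.95, 1.63 and 1.43 in isolations 48, 54, 75 and 77. It was 0.29 for Nfkbia, which encodes an inhibitor of NF-kappa-B and changed by 1.16, 0.84, 1.13 and 1.18. It was 0.31 for Cxcr4, a chemokine receptor of migrating progenitor cells (1.36, 1.43, 1.44 and 1.55), and 0.32 for Gse1 (0.88, 1.21, 1.46 and 1.96). Bdkrb2, a bradykinin receptor, followed at 0.33 (1.46, 1.01, 1.32 and 1.04) and Id3, an inhibitor of basic helix-loop-helix factors, at 0.36 (0.43, 1.27, 1.63 and 1.68). Their levels differed widely. Bdkrb2 lay between 0.849 and 4.68 TPM and Id3 between 96.2 and 392.4 TPM, and Nfkbia was lower in vehicle_a (12.6 and 11.9 TPM) than in vehicle_b (18.2 and 15.4 TPM), the reverse of Sik1. These genes were chosen for their changes, so the changes are a description without a test.

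**Figure D5:**
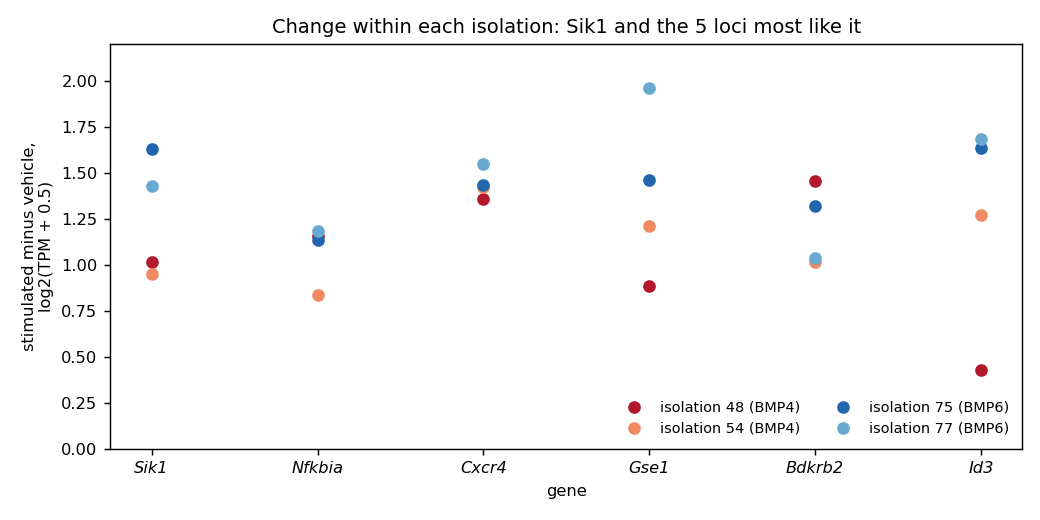
Change within each isolation (stimulated minus vehicle, log2 of TPM + 0.5, vertical axis from 0) for Sik1 and 5 other loci. Each point is an isolation. The 5 loci had the smallest root mean square difference from Sik1 among the 11073 loci compared. All points lie above 0; the Sik1 points run from 0.95 to 1.63, and Id3 has the lowest point, 0.43 in isolation 48.

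Promoter sequence of the RefSeq annotation (GRCm38.p6, an earlier build than that of the expression files) was matched by symbol for 4 of the 6 genes, Sik2, Sik3, Crtc1 and Crtc3, and covered 250 bases before the start. CREB binds the cAMP response element TGACGTCA and its shorter core TGACG, and both were searched on both strands. The full element was in none of the 4 promoters and in 1.55% of all 32851 promoters. The core was found in Sik3 alone of the 4, 3 times, at 133, 116 and 57 bases before the start, and in 17.8% of all promoters. The Sik3 promoter is shown for these matches, which are in capitals (chr9:46012570-46012819, plus strand).
Sik3: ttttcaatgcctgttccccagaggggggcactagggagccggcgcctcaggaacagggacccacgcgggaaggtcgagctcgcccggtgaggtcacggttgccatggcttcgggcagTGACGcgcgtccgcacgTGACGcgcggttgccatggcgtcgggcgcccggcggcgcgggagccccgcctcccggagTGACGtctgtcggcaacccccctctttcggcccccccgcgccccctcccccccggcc
The core is contained in the full element, and a match describes the letters only. Strings known from SMAD binding were counted in the same way. GGCGCC occurs in 9.59% of all promoters and was found 2 times each in Sik3 and Crtc1. A further GC-rich string, GGAGCC, occurs in 26.0% of all promoters and was found 2 times each in Sik3 and Crtc1 and 1 time in Crtc3. The short SMAD box GTCT, which 82.9% of all promoters hold, was found 1 time each in Sik3 and Crtc3. Its palindrome of 8 bases, GTCTAGAC, occurs in 0.167% of all promoters and was in none of the 4, and the same held for the TATA string TATAAA, which occurs in 12.4%. None of these strings was found in the Sik2 window.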

How the data were processed

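Strand-specific poly(A) libraries from 500 ng RNA were read from a single end for 50 nt, according to the protocols in the labels. The submitters' processing notes name the build GRCm39 and the tools STAR 2.7.11a and SAMtools 1.17. Per the file headers, the authors ran StringTie 2.2.1 on a merged annotation of their own, with multi-mapped reads left uncorrected and no strand option set, and deposited TPM values, FPKM values and coverage signal. The members and gene lists were chosen with earlier results of these data known.

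Groups follow the labels, and columns were read by isolation code. The joint table matched each library's own table in 55223 of 55223 rows within 1e-05. Reads were estimated as coverage times transcript length over 50 (48012825 to 58002740 per library). The part of counting in the spread of the members was not tested. Replicates differed beyond read sampling (chi-square per gene 34.2 to 237.6) and none was a duplicate. TPM are shares of a library, so a rise of some genes lowers others.

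The log2(TPM + 0.5) values of loci averaging 0.5 TPM or more were fitted in limma 3.58.1 (R 4.3.3) with 4 group means and a trended prior, two-sided, with Benjamini-Hochberg adjustment and a threshold of 0.05. Fold changes of low genes are understated on this scale. With the isolation as a block, vehicle_b against vehicle_a cannot be estimated. The labels give the vehicle and stimulated libraries of an isolation the same isolation code, which pairs them. Their deviations from the group means had a correlation across loci of 0.707 in the BMP4 experiment and 0.455 in the BMP6 experiment. The median estimates of the fits were checked on simulated data with planted changes. The spread in those data was taken from the vehicle_b and BMP6 libraries only. The check covered the size of the changes and not the calls. Named genes are the 6 members, the list genes that passed a BMP comparison in either fit or otherwise the most abundant gene of the list, and the 5 loci most like Sik1. Alternatives were other pseudocounts, filters, scalings, FPKM, limma's voom on the estimated reads, each experiment fitted alone, the block, and leaving out each library or isolation. A fit of the 4 vehicle libraries alone was added after seeing the data. The list genes Mef2b and G6pc1 had no locus of that name.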

Additional observations from a re-analysis of the deposited data

How the results depend on the processing

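The direction of Sik1 was the same under all 26 alternatives for BMP4 and for BMP6, with log2 changes of 0.64 to 1.32 and 1.34 to 1.63, and under all 24 for the mean of both responses (1.09 to 1.42). The number of members that passed for BMP4, BMP6 and the mean was 0 without the isolation as a replicate block and 1, Sik1, with it, also with voom, with pseudocounts of 0.1 and 2 and, for BMP4 and BMP6, within its own experiment. The Sik1 change with BMP4 was then 0.98 with the block alone or within its own experiment, 0.99 with voom, 0.99 with a pseudocount of 0.1 and 0.96 with 2. With BMP6 these values were 1.53, 1.60, 1.59 and 1.34, and for the mean 1.26, 1.29, 1.29 and 1.15. With the block and without an isolation, the number that passed ranged from 0 to 1 for BMP4 (Sik1 at 0.95 to 1.02) and BMP6 (1.43 to 1.63) and was 1 for the mean (1.20 to 1.31). With a library left out and no block it was 0 for all of these. Between the vehicles it ranged from 0 to 2 when a library was left out, against 1 with all and 1 in the fit of the 4 vehicle libraries alone, which was chosen after seeing the data and in which 2879 loci passed against 4602. The block changed no other call of a member. For BMP4, BMP6 and the mean, 0.0237%, 0.0118% and 0.071% of all loci passed without the block in the main fit. With the block alone, 0.633%, 0.148% and 0.674% of all loci passed. Between the vehicles 27.2% of all loci passed with all libraries. Shares of all loci under the other alternatives are not given, so those counts describe the members only.

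Members near 0 changed sign. Sik2 with BMP4, 0.0014 as reported, was -0.0020 with a pseudocount of 2 with or without the block, -0.0016 with FPKM, -0.10 with voom and -0.084 with voom and the block. For the mean of both responses it was -0.034 with voom and -0.025 with voom and the block. Crtc1 with BMP4, -0.0077 as reported, was 0.0059 after median-ratio scaling and 0.017 after quantile normalisation. Leaving out a library or an isolation moved the BMP4 change of Sik2 between -0.27 and 0.27, of Sik3 between -0.23 and 0.13, of Crtc1 between -0.078 and 0.062 and of Crtc2 between -0.40 and 0.021. The BMP6 change then lay between -0.027 and 0.24 for Sik2, -0.018 and 0.013 for Sik3, -0.088 and 0.29 for Crtc1, and -0.070 and 0.22 for Crtc2. The mean lay between -0.082 and 0.19 for Sik2, -0.11 and 0.063 for Sik3, -0.048 and 0.14 for Crtc1, and -0.16 and 0.048 for Crtc2. The difference of the responses lay between -0.17 and 0.38 for Sik2, -0.13 and 0.22 for Sik3, and -0.080 and 0.30 for Crtc1. That of Crtc2 between the vehicles lay between -0.19 and 0.23. The cause of these changes was not tested. With 2 libraries a group, 1 pair decides the Sik1 call of each ligand in the blocked fit.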

Other observations

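Between the unstimulated cultures, 24 of the 74 tested genes of the 9 lists (32.4%) passed in limma without the block, a share near the 27.2% of all tested loci. Of them 6 (8.11%) were higher and 18 (24.3%) lower in vehicle_b than in vehicle_a, beside 10.6% and 16.6% of all tested loci. The protein kinase A inhibitor Pkig was at 314.9 and 454.0 TPM in vehicle_a and at 115.2 and 100.0 TPM in vehicle_b, a log2 difference of -1.81 (limma adjusted p = 0.011). Mef2a, a MEF2 factor of muscle gene expression, was at 80.7 and 131.1 TPM against 33.1 and 31.4 TPM (log2 difference -1.66, limma adjusted p = 0.0165). Stk11, which encodes the upstream kinase LKB1, was at 53.6 and 54.9 TPM against 37.5 and 35.1 TPM (log2 difference -0.57, limma adjusted p = 0.0209). Atf1, a CREB family factor, lay the other way, at 33.2 and 27.4 TPM in vehicle_a and 46.6 and 46.8 TPM in vehicle_b (log2 difference 0.62, limma adjusted p = 0.0238). The markers of muscle stem cells and myoblasts summed to 2563 and 2736 TPM in vehicle_a and to 1248 and 1657 TPM in vehicle_b. Most of the sum was Des and Myod1, and the markers did not share a direction. Des, Myod1, Cdh15, Itga7 and Pax7 were lower in vehicle_b, whereas Myf5, Sdc4 and Vcam1 were higher. Myf5 was at 52.3 and 38.2 TPM in vehicle_a and at 94.0 and 86.4 TPM in vehicle_b. Sdc4 was at 8.65 and 4.69 TPM against 55.2 and 68.2 TPM. The part of these markers in the differences above was not tested.

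The vehicle library of isolation 54, which had the highest Sik1 level of the 4 vehicle libraries, stood apart in 5 genes of the CREB target list, named here after their values were seen. Egr1 was at 210.7 TPM there and at 3.89, 1.64 and 5.22 TPM in the vehicle libraries of isolations 48, 75 and 77. Fos was at 74.1 TPM there and at 3.85, 2.91 and 3.26 TPM in the others. Dusp1 was at 44.4 TPM there and at 13.0, 7.97 and 9.93 TPM in the others, Fosb at 9.25 TPM there and at 0.173, 2.67 and 1.59 TPM, and Btg2 at 20.5 TPM there and at 7.86, 2.65 and 3.28 TPM. The list as a whole did not share this direction. Nr4a2 was at 1.07 TPM there and at 2.72, 5.07 and 6.47 TPM in the others, and Areg and Pde4b were also lowest there. In the BMP4 library of isolation 54 the levels were 31.9 TPM for Egr1, 15.7 TPM for Fos, 23.0 TPM for Dusp1 and 18.5 TPM for Btg2, each lower than with vehicle, and 9.59 TPM for Fosb, which was not lower. Sik1 was higher there. Without that vehicle library, the log2 change of Sik1 with BMP4 was 1.32 in limma without the block (adjusted p = 0.701).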
